A study of Mus musculus with 6 samples.

Results

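The heat shock chaperones described here are 10 mouse genes, chosen by name from the 27179 gene numbers of the deposited count table, and all 10 were matched to a row. They are the cytosolic HSP70 genes Hspa1a, Hspa1b and Hspa8, the HSP110 gene Hsph1, the J-domain gene Dnajb1, the HSP90 genes Hsp90aa1 and Hsp90ab1, the mitochondrial chaperonin genes Hspd1 and Hspe1, and Hsf1, which encodes the main heat shock transcription factor. The cells were CD8+ T cells of gBT-I transgenic mice kept free of specific pathogens, whose transgenic receptor recognises a glycoprotein B peptide of herpes simplex virus. Total spleen cells were stimulated in vitro with this peptide plus lipopolysaccharide, received IL-2 from day 2 to day 5, and were collected on day 6. In the butyrate group (3 libraries) butyrate, a short-chain fatty acid that inhibits histone deacetylases, was present from day 3, and the control group (3 libraries) was activated in the same way without it. The labels give no butyrate dose and no sorting step, so each library is the RNA of everything in the culture. In such bulk samples, fewer cells of a type and less RNA per cell cannot be told apart. The comparison asks how butyrate altered the transcripts of activated T cells.

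Chaperones bind unfolded protein and release it through cycles of ATP use. HSP70 proteins take up short exposed stretches of a client, J-domain proteins such as Dnajb1 deliver clients and start ATP hydrolysis, HSP110 proteins exchange the nucleotide, and HSP90 acts late, on kinases and receptors that are nearly folded. In the mitochondrial matrix, HSP60 (Hspd1) forms a barrel that HSP10 (Hspe1) caps. HSF1 binds heat shock elements, repeats of the letters GAA in alternating orientation, and drives the stress-inducible genes, of which Hspa1a and Hspa1b are the classic pair, while Hspa8 and Hsp90ab1 are the forms that cells make without stress. Activated T cells are known to make chaperones in quantity while they grow.

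Promoter windows were matched for 6 of the 10 members. Those of Hspa1b and Hspa1a are shown because they are nearly the same, and that of Hspe1 because an Hspd1 window covers much of the same DNA. The Hsph1 window is shown because it also holds the longer element although the gene did not pass the test. Each window runs from 250 bases before to 50 bases after the RefSeq start site (GRCm38.p6), and capitals mark matches to the heat shock element letters GAANNTTC or GAANNTTCNNGAA, searched on both strands (the reverse complement of the longer one is TTCNNGAANNTTC, and the longer one contains the shorter). The windows below lie at chr17:34959189-34959488 (minus strand) for Hspa1b, chr17:34972107-34972406 (minus strand) for Hspa1a, chr1:55087898-55088197 (plus strand) for Hspe1 and chr5:149636266-149636565 (minus strand) for Hsph1.
Hspa1b: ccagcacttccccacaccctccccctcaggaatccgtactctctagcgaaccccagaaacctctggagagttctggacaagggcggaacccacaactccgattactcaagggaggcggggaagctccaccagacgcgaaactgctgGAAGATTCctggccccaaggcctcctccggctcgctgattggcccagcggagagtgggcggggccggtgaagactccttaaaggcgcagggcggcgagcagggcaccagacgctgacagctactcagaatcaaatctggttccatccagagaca
Hspa1a: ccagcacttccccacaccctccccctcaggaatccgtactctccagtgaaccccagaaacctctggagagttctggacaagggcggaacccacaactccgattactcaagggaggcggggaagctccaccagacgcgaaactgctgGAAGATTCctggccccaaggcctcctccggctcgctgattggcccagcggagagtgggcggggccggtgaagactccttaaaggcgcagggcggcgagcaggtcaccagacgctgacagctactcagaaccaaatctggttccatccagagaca
Hspe1: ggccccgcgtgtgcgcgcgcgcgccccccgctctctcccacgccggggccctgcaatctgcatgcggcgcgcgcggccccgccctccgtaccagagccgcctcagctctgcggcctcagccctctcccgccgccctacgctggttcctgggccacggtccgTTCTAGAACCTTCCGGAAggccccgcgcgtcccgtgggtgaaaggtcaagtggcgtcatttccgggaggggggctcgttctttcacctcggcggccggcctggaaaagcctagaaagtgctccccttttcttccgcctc
Hsph1: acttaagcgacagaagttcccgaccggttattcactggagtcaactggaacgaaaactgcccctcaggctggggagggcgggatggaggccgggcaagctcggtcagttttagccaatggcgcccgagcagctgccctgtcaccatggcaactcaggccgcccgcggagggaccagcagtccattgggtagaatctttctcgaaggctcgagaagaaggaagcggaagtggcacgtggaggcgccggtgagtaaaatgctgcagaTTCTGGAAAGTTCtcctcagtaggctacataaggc
The Hspa1b and Hspa1a windows were identical at 296 of 300 positions (98.7%). They differed by the substitutions T44C, C47T, G249T and T276C, with the Hspa1b base first and positions counted from 1 at the 5′ end of the window. Both held 1 match to GAANNTTC, which began 104 bases before the start site (position -104), and neither held the longer element. The Hspe1 window held a pair of overlapping matches to the longer element, which began at -89 and -84. A second gene, Hspd1, lies on the opposite strand, and 1 of its 2 listed windows (chr1:55087883-55088182, minus strand) held the same letters at -144 and -139. That window belongs to a start site inside the Hspd1 gene model. The other window (chr1:55088194-55088493), at the outer end of the gene model, held neither element. The longer element was found in both Hsph1 windows, downstream of the start site (first base at 15 in the window shown and at 36 in the other), and in neither Dnajb1 window. The letters TTCNNGAA were not searched on their own, and the Hsph1 window shown holds them, unmarked, before the start site. Over all 32851 promoter windows of this length, 0.603% held the longer element and 7.86% the shorter one. These matches describe letters in a window and are not binding data.

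Library totals lay between 5383380 and 6244350 counts, and the ranges of the 2 groups overlapped. Levels are given in CPM (counts per 1000000 counts, scaled by TMM so that libraries share a common level). A gene without counts could have stood at up to 0.480 to 0.557 CPM, the value of 3 counts before TMM scaling. Such limits cover counting error only, because the sources used here mention no molecular identifiers. The T cell identity of the cultures was visible in both groups: the summed level of 7 T cell markers was 3231 to 4413 CPM in butyrate libraries and 3531 to 4278 CPM in control libraries, and that of Cd8a and Cd8b1 was 608 to 730 CPM with butyrate and 572 to 816 CPM in control. Of the 7 T cell markers, 0 were called higher and 2 lower (Cd3e, log2 fold change -0.61, edgeR adjusted p = 0.000816; Lck, -0.43, 0.00605), and the largest part of the sum was Trac, at 2057 to 3209 CPM with butyrate and 1844 to 2481 CPM in control. Markers of other spleen cells stood far lower, but several moved with the treatment. The summed level of 10 macrophage and dendritic cell markers was 82.7 to 94.2 CPM with butyrate and 21.9 to 75.8 CPM in control, with 1 of them called higher (Itgam, at 33.3 to 51.0 CPM with butyrate and 3.34 to 4.68 CPM in control) and Siglech at 0 in all libraries. For 8 B and plasma cell markers the sums were 40.7 to 49.2 CPM with butyrate and 27.5 to 29.7 CPM in control, with 2 called higher and Pax5 at 0. For 6 granulocyte and mast cell markers they were 14.3 to 36.0 CPM with butyrate and 3.89 to 15.2 CPM in control, with 2 called higher. For 5 erythroid and platelet markers they were 7.05 to 45.6 CPM with butyrate and 0.371 to 2.92 CPM in control, with 2 called higher. Cd4 stood at 3.88 to 5.54 CPM with butyrate and 0.180 to 1.46 CPM in control, and 4 NK cell markers summed to 58.4 to 71.4 CPM with butyrate and 75.9 to 92.3 CPM in control. Of these 4, Klrb1c was called higher (log2 fold change 1.66, edgeR adjusted p = 0.00161) and Eomes, which made up most of the sum, was called lower (-0.61, 0.00491). Ncr1 and Klra8 stood at 0 to 0.185 CPM, so the sum rested on Eomes and Klrb1c and is a weak measure of NK cells. Cd4, Cd22, Sdc1, Cxcr2, Siglecf, Hbb-b1 and Epor passed the filter on low counts only with their butyrate libraries, and all 7 were called higher; they entered the test only through being high there. The part of such cells in the changes of the chaperone genes was not tested.

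With butyrate the inducible HSP70 gene Hspa1b rose 7.55-fold, the inducible HSP90 gene Hsp90aa1 rose 1.34-fold, and the mitochondrial chaperonin genes Hspe1 and Hspd1 rose 1.44-fold and 1.27-fold. Hspa8, Hsp90ab1, Dnajb1, Hsph1 and Hsf1 did not pass the test. Of 9 members with enough counts to be tested, 4 were therefore called higher and 0 lower by edgeR's quasi-likelihood test at an adjusted p under 0.05. Among all 11740 genes tested, 45.9% were called, 23.5% higher and 22.5% lower, so a call was common in these libraries. Higher genes made up 51.1% of all calls, and 61.8% with upper quartile scaling. The groups did not overlap for 5 of the 9 members, all higher with butyrate, and for 28.9% (higher) and 28.2% (lower) of all genes tested. The median log2 fold change was 0.19 over the 9 members tested and 0.00343 over all genes tested. Hspa1b passed the filter on low counts through its butyrate libraries alone, so the count and the median include a member that had to be high with butyrate to be tested.

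**Figure D1:**
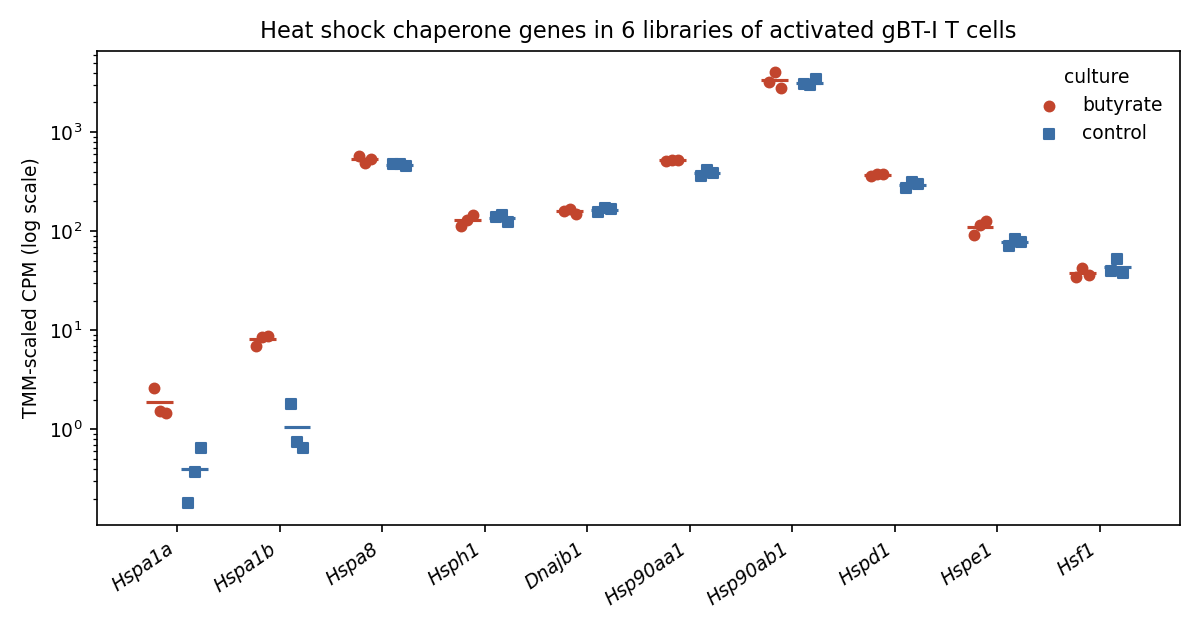
Level of each of the 10 genes in every library (TMM-scaled CPM, log axis), with 3 butyrate libraries (red circles) left of 3 control libraries (blue squares) and a line at each group's mean. Hspa1a and Hspa1b lie lowest, with butyrate at 1.48 to 8.69 CPM and control at 0.180 to 1.80 CPM, and Hsp90ab1 lies highest in both groups.

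Hspa1b (gene 15511, chromosome 17, 34956429 to 34959238) and Hspa1a (gene 193740, chromosome 17, 34969359 to 34972156) encode the stress-inducible HSP70 and are close copies. Hspa1b stood at 7.03, 8.60 and 8.69 CPM in butyrate libraries, against 1.80, 0.742 and 0.649 CPM in control libraries. Every butyrate library lay above every control library, and control replicate 1 was the highest of its group. The log2 fold change was 2.92 (SE 0.35, 95% interval 2.13 to 3.71, edgeR adjusted p = 0.000283). The size rested on few control reads, 18 in all against 135 with butyrate, and leaving out control replicate 1 gave a log2 fold change of 3.52. Hspa1b passed the filter on low counts only through its butyrate libraries, so it had to be high there to be tested.

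Hspa1a stood at 2.59, 1.55 and 1.48 CPM in butyrate libraries, against 0.180, 0.371 and 0.649 CPM in control libraries. The groups did not overlap, but the gene was too low for the filter and has no test in the main fit. Its 31 butyrate and 7 control counts correspond to a 4.56-fold difference, with exact 95% bounds of 1.97 and 12.3 for counting error alone. With no filter, edgeR gave a log2 fold change of 2.10 (adjusted p = 0.0144).

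The sources used here do not state how reads that fit both copies were counted. Of the distinct 50-base stretches in Hspa1b transcripts, 62.3% also occur in Hspa1a transcripts, and 58.8% of those of Hspa1a occur in Hspa1b, so the split between the copies is uncertain. Their sum does not depend on that split, although reads dropped for fitting both copies would be missing from it. The sum was 52, 59 and 55 counts (9.97 ± 0.31 CPM, SD, n = 3) with butyrate, against 11, 6 and 8 counts (1.46 ± 0.457 CPM, SD, n = 3) in control. All 3 butyrate libraries lay within a narrow band, above all control libraries. Counted as 1 gene, the copies had a log2 fold change of 2.75 (edgeR adjusted p = 9.35e-05). In control the sum was 1.98, 1.11 and 1.30 CPM, against a filter level of 1.82 CPM. The merged copies thus also passed the filter on low counts only with their butyrate libraries, and had to be high there to be tested. Hspa1a and Hspa1b were still the lowest of the 10 members with butyrate.

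Hspa8 (gene 15481, chromosome 9, 40801276 to 40805202) encodes the constitutive HSP70, which also uncoats clathrin vesicles. It stood at 571, 494 and 539 CPM in butyrate libraries, against 476, 478 and 456 CPM in control libraries. The butyrate libraries all lay higher, with replicate 2 close to control, yet the gene did not pass the test (log2 fold change 0.19, SE 0.09, 95% interval -0.01 to 0.38, edgeR adjusted p = 0.104). With upper quartile scaling it was called (0.27, adjusted p = 0.0295). Part of its sequence is shared: 39.4% of the 50-base stretches of its transcripts also occur in transcripts of other genes, most of them in Gm15459 (34.6%), and 3 small nucleolar RNA genes lie within it.

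The ratio of the inducible pair to the constitutive gene within a library does not depend on scaling. Hspa1a plus Hspa1b had 0.0170, 0.0207 and 0.0190 counts per count of Hspa8 with butyrate, against 0.00435, 0.00252 and 0.00302 in control. Each control ratio was below every butyrate ratio. The log2 ratio was -5.73 ± 0.14 with butyrate and -8.28 ± 0.40 in control (SD, n = 3), a difference of 2.55 (exact two-sided permutation p = 0.1). That p is the smallest that 3 against 3 libraries can give, and none of the 5 ratios compared could pass 0.05 (adjusted p of this one 0.25).

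Neither HSP70 partner among the members passed the test. Dnajb1 (gene 81489, chromosome 8, 83608175 to 83612653) encodes the stress-inducible HSP40. It stood at 162, 168 and 149 CPM in butyrate libraries, against 157, 170 and 167 CPM in control libraries. The groups overlapped, with the lowest value in butyrate replicate 3 (log2 fold change -0.05, 95% interval -0.23 to 0.14, edgeR adjusted p = 0.674). Upper quartile scaling turned the direction (0.04), as did leaving out butyrate replicate 3 (0.0029).

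Hsph1 (gene 15505, chromosome 5, 149616843 to 149636498), which encodes the HSP110 that exchanges nucleotide on HSP70, stood at 113, 130 and 146 CPM in butyrate libraries, against 140, 146 and 124 CPM in control libraries. Both groups spanned much the same range (log2 fold change -0.07, 95% interval -0.32 to 0.18, edgeR adjusted p = 0.611). The direction turned with upper quartile scaling (0.01) and without butyrate replicate 1 (0.02). Relative to Hspa8 in the same library, the log2 ratio of Hsph1 was -2.05 ± 0.25 with butyrate and -1.78 ± 0.09 in control (SD, n = 3). The difference was -0.26 (exact permutation p = 0.1, adjusted p = 0.25). The groups were only just apart, with the highest butyrate value at -1.89 and the lowest control value at -1.88. Between libraries of the same replicate number the differences were -0.57, -0.21 and -0.01. For Dnajb1 to Hspa8 the log2 ratio was -1.74 ± 0.16 with butyrate and -1.51 ± 0.07 in control, and the groups overlapped (difference -0.23, exact permutation p = 0.2, adjusted p = 0.25). Here too the ratio was lower with butyrate in all 3 pairs of the same replicate number, with differences of -0.22, -0.06 and -0.41.

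**Figure D2:**
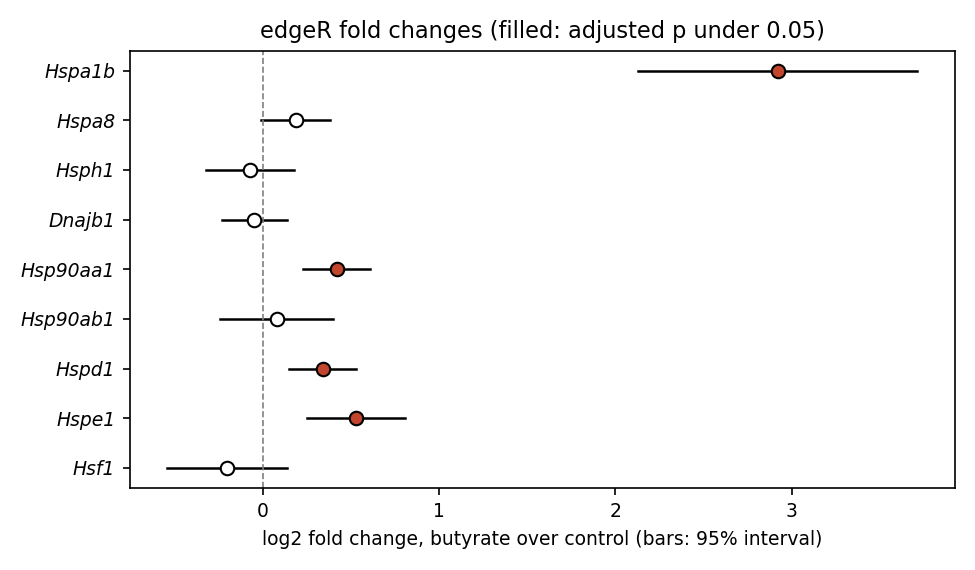
Log2 fold change, butyrate over control, of the 9 members tested (points) with 95% intervals (bars), filled where edgeR's adjusted p was under 0.05. Hspa1b at 2.92 stands apart from Hspe1, Hsp90aa1 and Hspd1 at 0.53, 0.42 and 0.34, and the other intervals include 0.

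Both cytosolic HSP90 genes were abundant, and they differed in what the test found. Hsp90aa1 (gene 15519, chromosome 12, 110691036 to 110696395), the stress-inducible form, stood at 510, 530 and 520 CPM in butyrate libraries, against 361, 413 and 392 CPM in control libraries. The butyrate libraries had an SD of 1.91% of their mean and all lay above control. The log2 fold change was 0.42 (SE 0.08, 95% interval 0.23 to 0.61, edgeR adjusted p = 0.00344). Of the 50-base stretches of its transcripts, 47.5% also occur in transcripts of other genes, 41.8% in Gm12346.

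Hsp90ab1 (gene 15516, chromosome 17, 45567778 to 45573261), the constitutive form, stood at 3195, 4025 and 2820 CPM in butyrate libraries, against 3057, 2967 and 3479 CPM in control libraries. Butyrate replicate 2 was the highest and butyrate replicate 3 the lowest of all 6 libraries. The log2 fold change was 0.08 (95% interval -0.24 to 0.40, edgeR adjusted p = 0.666), and it was -0.08 without butyrate replicate 2. The gene held 63.8% ± 4.33 of the counts of the 10 members with butyrate and 66.7% ± 2.48 in control (SD, n = 3). The 10 members together made up 0.523% ± 0.0596 of all counts with butyrate and 0.471% ± 0.0222 in control, with overlapping ranges.

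Hsp90aa1 had 0.160, 0.132 and 0.184 counts per count of Hsp90ab1 with butyrate, against 0.118, 0.139 and 0.113 in control. Butyrate replicate 2, where Hsp90ab1 was highest, fell within the control range. The log2 ratio was -2.67 ± 0.24 with butyrate and -3.02 ± 0.16 in control (SD, n = 3), so the difference of 0.35 was not separable from the spread (exact permutation p = 0.2, adjusted p = 0.25). A rise particular to the inducible form is thus not shown by the ratio, although the 2 genes fell on different sides of the threshold.

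The chaperonin genes of the mitochondrial matrix were both called higher. Hspd1 (gene 15510, chromosome 1, 55077833 to 55088243), which encodes HSP60, stood at 359, 378 and 381 CPM in butyrate libraries, against 273, 312 and 297 CPM in control libraries. The lowest butyrate library lay above the highest control library. The log2 fold change was 0.34 (SE 0.08, 95% interval 0.15 to 0.53, edgeR adjusted p = 0.00935). Tested against a fold of 1.2 with glmTreat, the call was lost (adjusted p = 0.164).

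Hspe1 (gene 15528, chromosome 1, 55088148 to 55091317), which encodes the HSP10 lid, stood at 91.7, 116 and 126 CPM in butyrate libraries, against 71.5, 82.7 and 77.7 CPM in control libraries. The groups did not overlap, and butyrate replicate 1 was nearest to control. The log2 fold change was 0.53 (SE 0.12, 95% interval 0.25 to 0.81, edgeR adjusted p = 0.00793). The gene models of Hspd1 and Hspe1 overlap head to head by 96 bases, partly within the Hspe1 window printed above, and the sources used here do not say whether counting used strand. In other genes' transcripts occur 42.1% of the 50-base stretches of Hspd1 (38.0% in Hspd1-ps3) and 22.8% of those of Hspe1.

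Hspd1 had 3.91, 3.25 and 3.02 counts per count of Hspe1 with butyrate, against 3.81, 3.77 and 3.82 in control. The control libraries agree closely, while the butyrate libraries lie on both sides of them (log2 ratio 1.75 ± 0.19 with butyrate and 1.93 ± 0.01 in control, SD, n = 3, difference -0.17, exact permutation p = 0.4, adjusted p = 0.4).

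**Figure D3:**
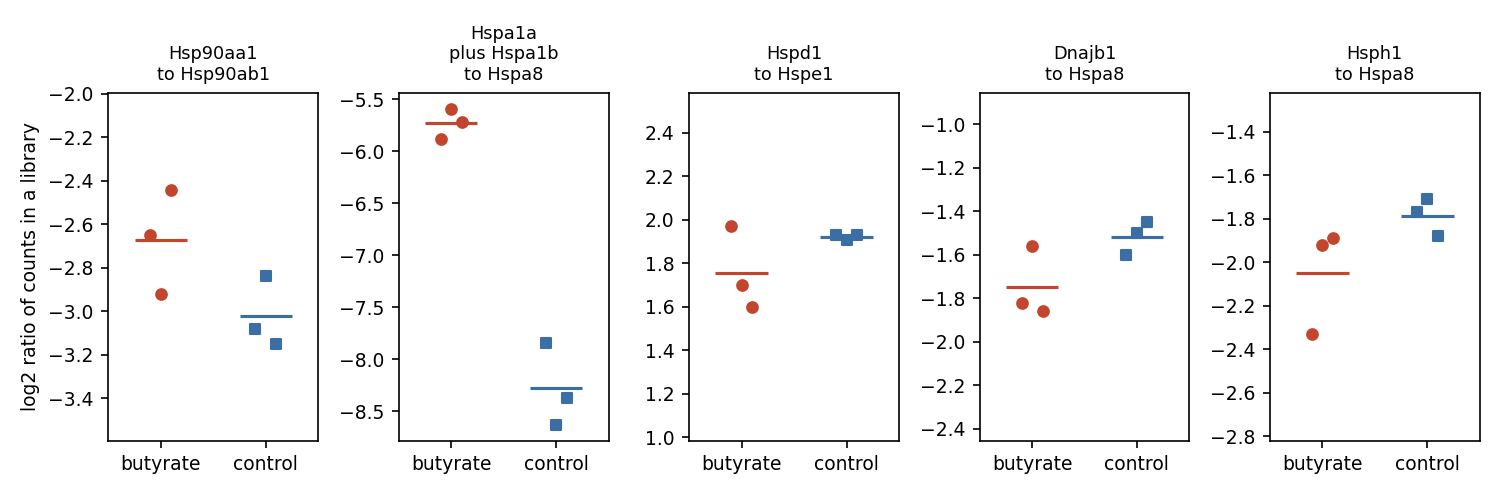
Log2 ratio of counts between paired chaperone genes in each library, 3 butyrate (red circles) left of 3 control (blue squares), with lines at the means and a separate vertical axis per panel. The ratio of Hspa1a plus Hspa1b to Hspa8 separates widely, at -5.88 to -5.59 with butyrate and -8.63 to -7.84 in control.

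Hsf1 (gene 15499, chromosome 15, 76477362 to 76501155), whose protein is controlled largely after translation, stood at 34.4, 42.5 and 36.0 CPM in butyrate libraries, against 39.6, 53.0 and 37.6 CPM in control libraries. Replicate 2 was the highest of both groups, which overlapped. The gene did not pass the test (log2 fold change -0.20, 95% interval -0.54 to 0.14, edgeR adjusted p = 0.295). Its value was lower with butyrate in all 3 pairs of libraries with the same replicate number, with log2 differences of -0.20, -0.32 and -0.06.

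By level per kilobase of annotated exon, the order was almost the same in both groups. Hsp90ab1 led at 1116 ± 206 CPM per kb with butyrate and 1056 ± 91.2 in control (SD, n = 3). Behind it came Hspd1, Hsp90aa1 and Hspa8, at 141 ± 4.65, 132 ± 2.53 and 124 ± 8.99 CPM per kb with butyrate, and at 111 ± 7.47, 98.9 ± 6.67 and 109 ± 2.83 in control, where Hspd1 and Hspa8 differed by less than their spread. With butyrate Hspa8 and Hsp90aa1 also differed by less than the SD of Hspa8. Hspe1 (75.5 ± 12.0 with butyrate and 52.4 ± 3.83 in control) and Dnajb1 (49.8 ± 3.10 and 51.4 ± 2.0) followed, and did not differ beyond their spread in control. Hsph1 stood at 17.9 ± 2.22 with butyrate and 18.8 ± 1.58 in control, and Hsf1 at 5.30 ± 0.601 and 6.12 ± 1.18. Hspa1b (2.89 ± 0.333 with butyrate and 0.379 ± 0.228 in control) and Hspa1a (0.631 ± 0.210 and 0.135 ± 0.0795) closed the order. The share of 50-base stretches that also occur in other genes' transcripts differed between members. It was 0% for Hsph1 and Hsf1, 3.44% for Hsp90ab1, 47.5% for Hsp90aa1 and 66.3% for Hspa1a. If reads that fit several genes were dropped, the levels would be lowered unequally, so the order between genes is uncertain.

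**Figure D4:**
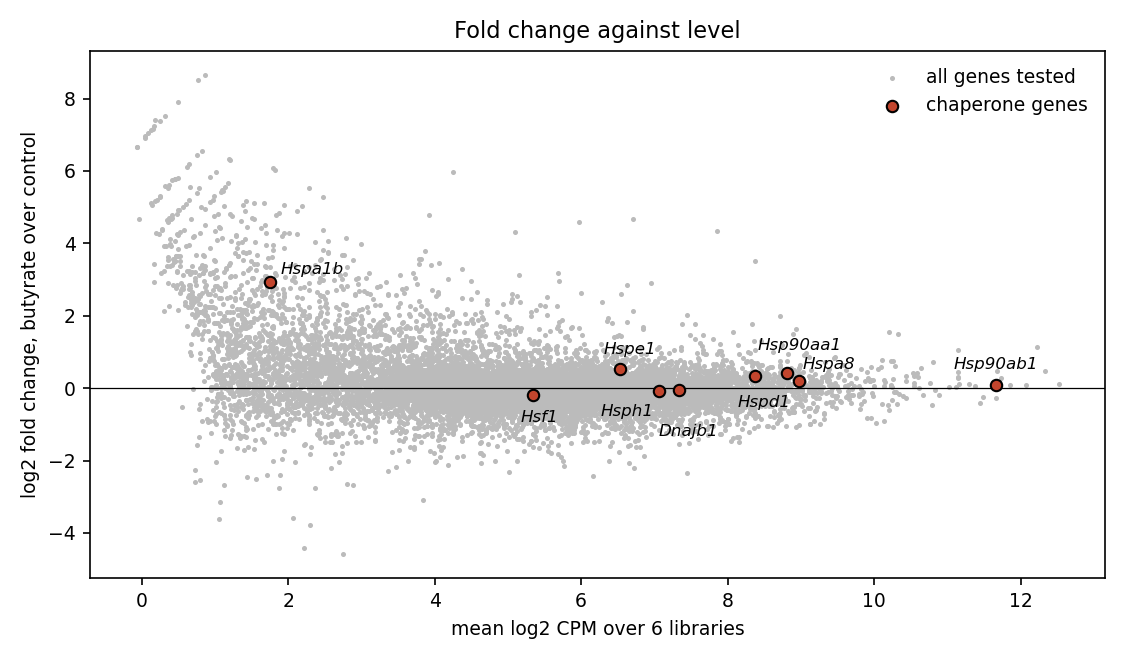
Log2 fold change, butyrate over control, against mean log2 CPM over 6 libraries, for 11740 genes tested (grey) and the 9 members tested (red). Hspa1b lies among low genes with high fold changes, and the other 8 members lie between -0.20 and 0.53.

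For 3 members, the genes with the most similar profile were taken by the root mean square distance of centred log2 CPM over the 6 libraries, among 9341 genes that averaged 10 CPM or more. Closest to Hspa1b were Tnfrsf4 (distance 0.198), which encodes the costimulatory receptor OX40, Tesc (0.229) and Extl1 (0.239). Their log2 fold changes were 2.59, 2.65 and 2.63, and the spread of Hspa1b around its own mean was 1.38. The distance thus depends largely on the size of the group difference, and shared regulation was not tested. Hspa1b itself stood below 10 CPM in every library. Closest to Hspd1 were Ndufs5-ps (0.0202), Slc3a2 (0.0248), which encodes the heavy chain of amino acid transporters, and Coq9 (0.0265), a gene of coenzyme Q synthesis. Hsp90aa1 ranked 21 from Hspd1, at a distance of 0.0428, while its partner Hspe1 ranked 1248 (0.139). Closest to Hsf1 were Ttc27 (0.0430), Atp6v1b2 (0.0766) and Cc2d1a (0.0775).

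The wider chaperone system was followed in 9 lists that hold 123 further genes, 104 of them tested. Of these, 23 were called higher and 11 lower (22.1% and 10.6%, against 23.5% and 22.5% of all genes tested), and 70 were not called. Their median log2 fold change was 0.14. The count of lower genes was 6 with upper quartile scaling and 7 under a filter of at least 5 CPM. Of higher genes it was 15 without control replicate 1, and of lower genes it was 6 without butyrate replicate 2, 7 without control replicate 2 and 6 without control replicate 3.

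Among the stress-inducible genes that HSF1 is known to drive, 3 of 17 tested rose and 1 fell, from 21 listed. These were 17.6% and 5.88% of those tested, against 23.5% and 22.5% of all genes tested. Ier5, an immediate early gene whose product is known to act on HSF1, stood at 184, 197 and 185 CPM with butyrate, against 131, 131 and 128 CPM in control (log2 fold change 0.54, edgeR adjusted p = 0.000532). Hspb1, the small heat shock protein gene, had 52 counts over the butyrate libraries and 0 over the control libraries, at least 17.8-fold higher against a floor of 3 counts over the control group. It stood at 2.96, 3.27 and 3.14 CPM with butyrate, so it too passed the filter only through the butyrate libraries. Bag3, also on this list, is given with the HSP70 partners. The other 13 tested genes, which include Dnaja1, Stip1, Fkbp4 and Ahsa1, were not called.

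The HSP70 and HSP110 family held 2 called higher and 1 lower of 5 tested (40% and 20%, against 23.5% and 22.5% of all genes tested). Hspa2, an HSP70 gene best known from the testis, stood at 40.1, 27.2 and 31.0 CPM with butyrate, against 7.92, 8.16 and 8.60 CPM in control (log2 fold change 1.99, SE 0.17, edgeR adjusted p = 7.17e-05). The butyrate libraries were thus at least 27.2 CPM and the control libraries at most 8.60 CPM. Hspa4, an HSP110 gene, rose (303 ± 29.6 CPM with butyrate and 220 ± 13.6 CPM in control, SD, n = 3, log2 fold change 0.46, edgeR adjusted p = 0.00456), and its relative Hspa4l fell (18.4 ± 1.35 and 28.4 ± 1.29 CPM, log2 fold change -0.62, adjusted p = 0.00207).

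Nucleotide exchange factors and other HSP70 partners were called higher in 4 and lower in 2 of 9. These were 44.4% and 22.2%, against 23.5% and 22.5% of all genes tested. Bag3, which links HSP70 to selective autophagy, stood at 20.3, 15.3 and 20.7 CPM with butyrate, against 5.22, 7.98 and 8.92 CPM in control (log2 fold change 1.34, SE 0.22, edgeR adjusted p = 0.00124). Bag5 rose by a log2 fold change of 0.47. Bag6, of the system that handles membrane proteins before insertion, and Stub1, the ubiquitin ligase CHIP that works with HSP70, fell by 0.33 and 0.27 on the log2 scale. Against a fold of 1.2 neither was called (adjusted p = 0.188 for Bag6 and 0.436 for Stub1). The call of Stub1, whose gene overlaps Jmjd8, was lost with upper quartile scaling (adjusted p = 0.111), the stricter filter (0.0501) and DESeq2 (0.0922), and without butyrate replicate 2 (0.0976) or 3 (0.0916) or control replicate 1 (0.106), 2 (0.0752) or 3 (0.0519).

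Of 25 tested J-domain genes, 2 were called higher and 4 lower (8% and 16%, against 23.5% and 22.5% of all genes tested). Dnajb13 (7.35 ± 3.22 CPM with butyrate and 3.31 ± 0.363 CPM in control) and Dnajb14 (2.95 ± 0.492 and 1.45 ± 0.336 CPM, SD, n = 3) rose by 1.13 and 1.01 on the log2 scale, and both calls were lost when single libraries were left out. Dnajb14 passed the filter on low counts only through its butyrate libraries. Dnajb13 had an adjusted p of 0.0825 without butyrate replicate 3, 0.0665 without control replicate 1 and 0.0709 without control replicate 2, and Dnajb14 was not called without butyrate replicate 2 (0.0607) or 3 (0.0934) or without control replicate 1 (0.0744) or 2 (0.1). Dnajc13, an endosomal protein gene, and Dnajc5, which encodes a chaperone of secretory vesicles, fell by 0.37 and 0.30 on the log2 scale. Against a fold of 1.2 neither was called (adjusted p = 0.116 for Dnajc13 and 0.302 for Dnajc5). The call of Dnajc5 was lost without butyrate replicate 2 (adjusted p = 0.085), control replicate 1 (0.093) or control replicate 3 (0.0769).

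HSP90 co-chaperones were called higher in 3 and lower in 2 of 20 (15% and 10%, against 23.5% and 22.5% of all genes tested). Fkbp5, which encodes a co-chaperone of steroid receptors, stood at 726, 796 and 717 CPM with butyrate, against 368, 430 and 426 CPM in control (log2 fold change 0.87, SE 0.09, edgeR adjusted p = 0.000185). Ppp5c, a phosphatase that docks on HSP90, had a log2 fold change of 0.27, and its call was lost when any library but butyrate replicate 3 was left out (adjusted p 0.0503 to 0.0631). Ahsa2 and Pih1d1 fell by 0.67 and 0.64 on the log2 scale. Both overlap a neighbouring gene (Usp34 and Aldh16a1), so without strand their counts are uncertain. Genes called higher overlap neighbours too, among them Fkbp5 (Gm22146) and, in the lists below, Grpel1 (Tada2b) and Cct7 (Pradc1). The same limit holds for them.

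Of the other mitochondrial chaperones and proteases, 5 of 19 rose and 0 fell (26.3% and 0%, against 23.5% and 22.5% of all genes tested). Grpel1, the exchange factor of mitochondrial HSP70, stood at 142, 138 and 157 CPM with butyrate, against 96.1, 109 and 101 CPM in control (log2 fold change 0.51, SE 0.09, edgeR adjusted p = 0.00161). Dnajc11, a J-domain protein gene of the organelle, rose by 0.49. The mitochondrial HSP70 gene Hspa9 and the protease genes Lonp1 and Afg3l2 were the other 3 (named after their values were seen), with log2 fold changes of 0.37, 0.32 and 0.36. The call of Hspa9 was lost without butyrate replicate 3 (adjusted p = 0.0532) or control replicate 1 (0.0525), the call of Afg3l2 without control replicate 2 (0.0511), and the call of Lonp1 without butyrate replicate 1 (0.0897) or 2 (0.118) or control replicate 1 (0.0999) or 2 (0.122).

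TRiC is the cytosolic chaperonin that folds actin and tubulin, and prefoldin hands clients to it. Of 14 subunit genes, 3 were called higher and 1 lower (21.4% and 7.14%, against 23.5% and 22.5% of all genes tested). Cct7 rose by 0.60 (295 ± 44.3 CPM with butyrate and 195 ± 12.2 CPM in control, SD, n = 3) and Pfdn6 by 0.49. Vbp1, a prefoldin subunit gene, fell by 0.53, but its groups overlapped (edgeR adjusted p = 0.0466). That call was lost without butyrate replicate 1 (0.0906) or 2 (0.0613) and without control replicate 2 (0.135) or 3 (0.145). Of the small heat shock proteins, 8 of 11 were too low to test. Hspb6 fell (6.99 ± 1.16 CPM with butyrate and 19.1 ± 1.68 CPM in control, log2 fold change -1.45), and Hspb11, a gene of the ciliary transport machinery, rose by 0.95 at an adjusted p of 0.0394. For Hspb11, 3 butyrate libraries reached the level of the filter on low counts and 2 control libraries did, so it passed only with its butyrate libraries. Leaving out a library ended the Hspb11 call in 4 of 6 cases: butyrate replicate 2 (0.0952) or 3 (0.118) and control replicate 1 (0.119) or 2 (0.109). Besides Hsf1, the heat shock factor gene Hsf4 rose at a low level (5.74 ± 1.00 CPM with butyrate and 2.41 ± 0.296 CPM in control, log2 fold change 1.25, edgeR adjusted p = 0.00389). Hsf2 did not pass the test.

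**Figure D5:**
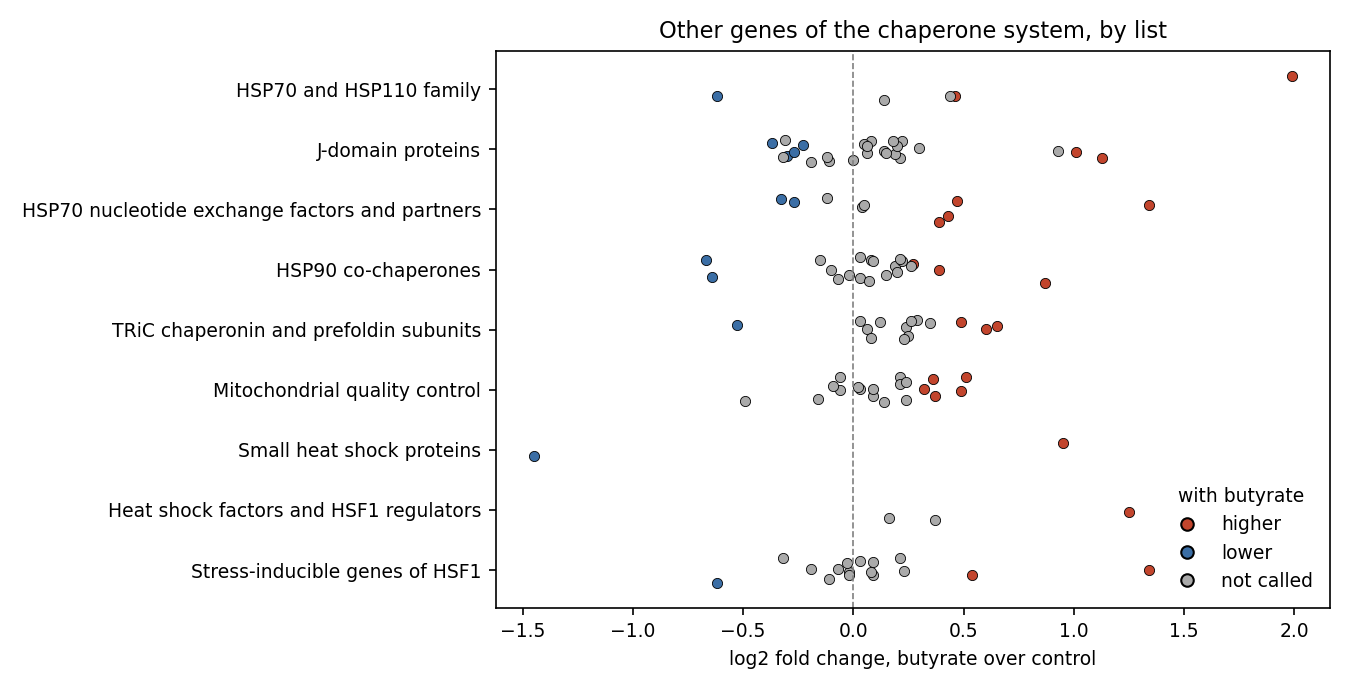
Log2 fold change, butyrate over control, of each tested gene of the 9 further chaperone lists, coloured by edgeR's call (red higher, blue lower, grey not called). Points of most lists gather near 0, with Hspa2 at 1.99 and Hspb6 at -1.45 as the outermost genes drawn, and Hspb1, with 0 control counts, is left out.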

How the data were processed

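The table the authors deposited holds unnormalized gene counts, and the labels name the column of each sample. Per the submitters' processing notes, the build was mm10 and the tools included TopHat, featureCounts of Subread, Picard, CASAVA and edgeR. Versions, roles, strand setting and the treatment of shared reads are not stated there. Gene numbers were named from RefSeq (GRCm38.p6, 25275) or GENCODE M21 (18), and 1886 had no name but stayed in the tests. Replicate libraries were not copies of each other (chi-square of 5.43 to 10.6 per degree of freedom between pairs, over genes with at least 20 counts). The labels name no separate mice or cultures, so the spread behind the p-values may be technical.

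All genes were fitted with edgeR 4.0.16 (R 4.3.3): TMM, filterByExpr, quasi-likelihood F test, Benjamini-Hochberg adjustment over the 11740 genes tested, and calls at an adjusted p under 0.05. The code was tested on simulated data. Each standard error is the absolute log2 fold change over the square root of F, and 95% intervals use the fit's degrees of freedom. Log2 ratios used counts plus 0.5. Transcript stretches and exon lengths come from GENCODE M21, promoters from RefSeq. Members and lists were chosen with earlier results of these data known. From each list, up to 2 called genes per direction with the smallest p are named. Libraries with the same replicate number deviated together from their group means (correlations 0.362, 0.197 and 0.353 over 11740 genes). The numbers were therefore taken as pairs for the differences by replicate number and for the replicate block. The main fit and the permutation tests did not use the pairs. Alternatives were other scalings and filters, DESeq2 (1.42.0), limma voom (limma 3.58.1), robust fitting, the replicate block, the Hspa1 copies as 1 gene, glmTreat and each library left out.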

Additional observations from a re-analysis of the deposited data

How the results depend on the processing

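The calls of Hspa1b, Hsp90aa1 and Hspe1 held in all 17 alternatives (adjusted p at most 0.00225, 0.0464 and 0.0379). Hspa1b, unlike Hsp90aa1 and Hspe1, entered the main fit only through its butyrate libraries. Hspd1 lost its call only against a fold of 1.2 (log2 fold change 0.34). That setting called 3447 genes in all, against 5393. Upper quartile scaling, which shifts the median of all genes to 0.0855, called Hspa8 (0.27) and turned Dnajb1 (0.04) and Hsph1 (0.01), gave 61.8% higher calls among all calls, against 51.1%, and left 6 pathway genes called lower, while the filter of at least 5 CPM left 7. Leaving out a library in turn gave log2 fold changes of -0.08 to 0.19 for Hsp90ab1, -0.09 to 0.0029 for Dnajb1 and -0.16 to 0.02 for Hsph1, and 15 to 22 pathway genes called higher and 6 to 10 lower. The cause was not tested. With the replicate block, 4 members were called higher and 0 lower, and no member changed its call. In that setting 30 pathway genes were called higher and 13 lower. For a ratio, the mean of the pair differences equals the difference of the group means, so the block could not change it. The 5 ratios kept their direction in every other alternative run. Among named pathway genes, DESeq2 ended the calls of Dnajb14 (adjusted p = 0.126), Hspb11 (0.0784), Ppp5c (0.0633), Lonp1 (0.0531) and Stub1 (0.0922), having no filter those of Dnajb14 (0.0602), Hspb11 (0.0511), Ppp5c (0.0677) and Lonp1 (0.0663), upper quartile scaling those of Dnajc5 (0.0784), Vbp1 (0.0837) and Stub1 (0.111), the stricter filter those of Vbp1 (0.0591) and Stub1 (0.0501), and total count scaling (0.0509) and robust fitting (0.0638) that of Vbp1. Testing against a fold of 1.2 also ended the calls of Afg3l2 (0.143), Bag6 (0.188), Dnajb14 (0.0548), Dnajc13 (0.116), Dnajc5 (0.302), Hspa9 (0.158), Hspb11 (0.0735), Lonp1 (0.27), Ppp5c (0.437), Stub1 (0.436) and Vbp1 (0.125). Depth limits Hspa1a, which has 7 control counts.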
